A study of Mus musculus with 21 samples.

Results

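Lungs of C3H/HeJ mice taken 3 weeks after bleomycin were set against lungs of C3H/HeJ control mice, gene by gene, on 4 of the 21 arrays of a study of 3 mouse strains. The 4 arrays were chosen by their titles alone: a male and a female array at 3 weeks, and a male and a female control array. Each array measured RNA from the whole right lung, pooled from 3 to 5 mice, on an Affymetrix mouse chip. The bleomycin was delivered from an implanted osmotic pump, at 100 mg/kg in the C3H/HeJ males and 125 mg/kg in the females, so dose and sex cannot be told apart in this strain. The sources used here do not say what was given to control mice. For comparison the study holds C3H/HeJ lungs at 6 weeks (2 arrays, doses as at 3 weeks), C57BL/6 lungs at 3 weeks (2 arrays, 100 mg/kg male and 125 mg/kg female) with 2 controls, and A/J lungs at 3 weeks (4 arrays, 80 and 100 mg/kg male, 100 and 125 mg/kg female) with 2 controls. Besides the strain the labels name no genetic alteration, and they do not state ages. A pool hides the spread between its mice. No 2 arrays share strain, stage, sex and dose, so there are no replicate pools. The p-values rest on the spread left between pools after group and sex. That spread includes any effect of sex or dose that differs between groups.

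Bleomycin is a glycopeptide drug that breaks DNA, and in the lung it is followed by damage to alveolar epithelium and capillaries, an influx of macrophages and neutrophils, and deposition of collagen. C57BL/6 is the strain usually described as prone to the fibrosis and C3H/HeJ as resistant to it. C3H/HeJ also carries a change in Tlr4, the endotoxin receptor, that leaves it poorly responsive to endotoxin. Broken DNA activates p53, which raises inhibitors of the cell cycle such as Cdkn1a, and interferon, released in many forms of tissue damage, raises antiviral genes such as the 2'-5' oligoadenylate synthetases (OAS).

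Signals below are quantile-normalised intensities, which have no unit and are not comparable between genes, with the male array before the female one. Changes are 3 weeks minus control on the log2(signal + 16) scale, which understates the change of dim genes, and a gene is said to have risen or fallen where limma's adjusted p was under 0.05. The lung markers were bright throughout: Sftpc, surfactant protein C of type 2 alveolar cells, read 7080 and 6827 at 3 weeks and 6510 and 7196 in controls. Scgb1a1 of airway club cells read 6372 and 7080 at 3 weeks and 6601 and 6601 in controls, equal because quantile normalisation gives 1 value to each rank, and Ager of type 1 cells read 3480 and 3359 at 3 weeks and 3938 and 3906 in controls. The median deposited intensity was 61.7 and 98.9 at 3 weeks and 98.8 and 83.9 in controls, so the male 3 week array was the dimmest of the 4. That array also stood apart in a check of sex: its deposited Xist intensity was 286, above the 81.6 to 243 of every other male array. Its Y-linked gene read 148, within the 70.1 to 312 of the other male arrays of all strains. Within C3H/HeJ that was the lowest male value, against 312 in the control and 182 at 6 weeks. Whether female RNA is part of that pool was not tested. Without this array 77 of the 106 called genes that were named by rule kept their calls.

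Of 9079 genes tested, 257 (2.83%) changed at 3 weeks: 158 rose (1.74%) and 99 fell (1.09%), and 109 of them changed more than 2-fold. At an unadjusted p under 0.05, 1491 genes (16.4%) differed. For the 257 genes the 2 arrays at 3 weeks lay wholly above or wholly below the 2 controls. That alone is common here, since both 3 week arrays exceeded both controls for 21.1% of all genes and fell short of both for 26.7%. Called genes numbered 221 without the male 3 week array, 145 without the female one, 68 without the male control and 80 without the female control. Under all 4 of these omissions 39 of the 257 stayed past the threshold, 33 that rose and 6 that fell. The split between rises and falls depended on scaling. With each array scaled to 1 median it was 114 rises and 172 falls, with the median of all genes at -0.13, and with the intensities as deposited it was 21 and 64, with that median at -0.32. Gene groups are therefore read below against those shifts.

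With the brightest probe set of each gene, the largest rise was that of Mmp12, the macrophage metalloelastase, which read 258 and 240 at 3 weeks against 19.8 and 6.55 in controls, a change of 3.22 (SE 0.48, adjusted p = 0.0012). Psrc1, a spindle protein that p53 is known to act on, read 295 and 247 at 3 weeks against 48.5 and 12.9 in controls (2.73). Other probe sets named for Psrc1 gave changes between -0.20 and 1.39, so its size depends on the probe set. Trem2, a lipid-sensing receptor of macrophages, and Saa3, an acute phase apolipoprotein, followed with 2.66 and 2.61. The smallest adjusted p belonged to Lcn2, the iron-sequestering lipocalin of neutrophils and injured epithelium. Lcn2 read 2752 and 2606 at 3 weeks against 594 and 527 in controls (2.23, SE 0.13, adjusted p = 5.0e-08). Among falls, Zdhhc1, a palmitoyltransferase, read 24.1 and 18.8 at 3 weeks against 139 and 134 in controls (-2.03), and Dock9, an activator of Cdc42, read 424 and 365 at 3 weeks against 954 and 1069 in controls (-1.32, adjusted p = 0.00037). Mmp12, Psrc1, Trem2, Saa3, Lcn2 and Dock9 kept their calls with each of the 4 arrays left out in turn, and Zdhhc1 with 2 of the 4. Several of the deepest falls were of genes whose 3 week signal lay near the dim end, such as Nup107, a nuclear pore component, at 15.7 and 14.96 at 3 weeks against 99.5 and 98.7 in controls.

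**Figure D1:**
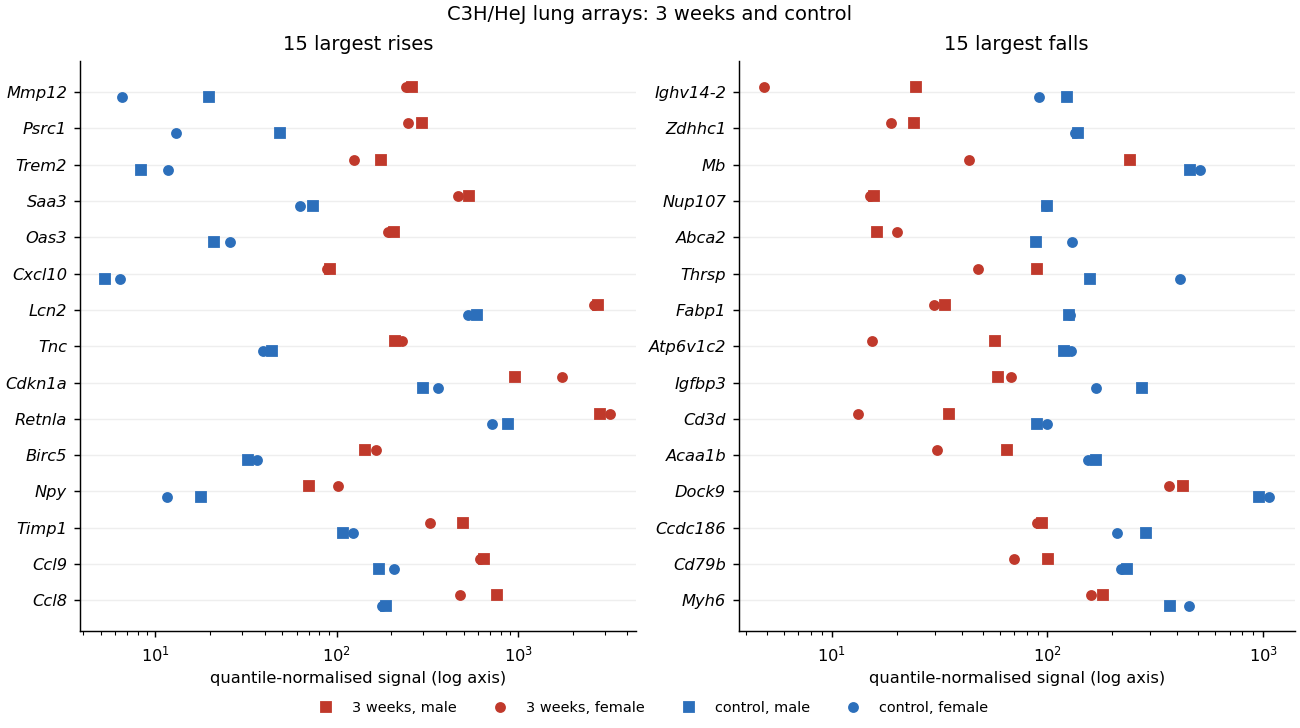
Quantile-normalised signal (log axis) of the 15 genes with the largest rises and the 15 with the largest falls on the 4 C3H/HeJ arrays, 1 point per array, red for 3 weeks and blue for control, squares male and circles female. No red point overlaps the blue range of its gene, which the calling rule favours, and Mb, Ighv14-2 and Atp6v1c2 show the widest gaps between the 2 red points.

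Of 33 tested genes of lipid-associated and recruited macrophages, 14 rose and 0 fell, with a median change of 0.49. The 14 became 10 with 1 common median and 3 with the intensities as deposited, and the median stayed above 0 in each (0.40 and 0.18). Trem2 read 176 and 125 at 3 weeks against 8.32 and 11.7 in controls. Gpnmb, a glycoprotein of lipid-loaded macrophages, read 868 and 766 at 3 weeks against 245 and 255 in controls (1.64, SE 0.19, adjusted p = 0.0001). Ctsk, cathepsin K, a collagen-degrading protease, read 1081 and 738 at 3 weeks against 274 and 297 in controls (1.60). Ccr2, the receptor that brings monocytes in from blood, read 161 and 196 at 3 weeks against 73.2 and 68.8 in controls (1.16, adjusted p = 0.014), and Lgals3, galectin 3, changed by 0.60. The groups do not overlap for these genes, as for all 158 genes that rose, so this adds nothing to their calls. Mmp12, Trem2, Gpnmb and Ctsk kept their calls under all 4 omissions, while Ccr2 and Lgals3 lost theirs under 3 of them. In tissue RNA, more cells of a type and more RNA per cell cannot be told apart.

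Genes of resident alveolar macrophages and of alternative activation, taken as 1 list, did not move together. Of 14 tested, 2 rose and 1 fell, where 1.74% of all genes rose and 1.09% fell. Retnla, a secreted protein of alternatively activated macrophages and airway epithelium, read 2822 and 3227 at 3 weeks against 879 and 717 in controls (1.91, adjusted p = 0.00018). Marco, a scavenger receptor of alveolar macrophages, read 223 and 202 at 3 weeks against 37.6 and 88.2 in controls (1.61). The 2 Marco controls differ from each other by more than 2-fold, and both lie under both 3 week arrays, as for every gene that rose. Chil3, the chitinase-like protein Ym1, went the other way, with 745 and 757 at 3 weeks against 1502 and 1332 in controls (-0.90, adjusted p = 0.023), and lost its call under each of the 4 omissions. Retnla and Marco kept theirs. Of 25 lysosomal genes, 10 rose and 0 fell, which became 2 with 1 common median and 0 with the intensities as deposited. Besides Ctsk they included the proteases Ctsb, at 3820 and 3755 at 3 weeks against 2162 and 2393 in controls (0.73, SE 0.11, adjusted p = 0.0012), and Ctsd (0.78) and Ctsl (0.74). Ctsb and Ctsk kept their calls under all 4 omissions.

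Acute phase and complement genes rose in 11 of 26 cases and fell in 0 (7 and 3 rises under the other 2 scalings). Saa3 read 536 and 464 at 3 weeks against 74.0 and 62.7 in controls. C3ar1, the receptor for complement fragment C3a, read 266 and 278 at 3 weeks against 64.7 and 89.8 in controls (1.64, SE 0.19, adjusted p = 0.00017). C1qa, a chain of the C1q recognition molecule that macrophages make, read 1350 and 1254 at 3 weeks against 430 and 496 in controls (1.46). Saa3, Lcn2, C3ar1 and C1qa kept their calls under all 4 omissions. Of 19 neutrophil genes, 8 rose and 0 fell, which became 4 rises with 1 common median, 1 with the intensities as deposited, 1 without the female control and 3 without the male 3 week array. S100a8, a subunit of calprotectin, read 1803 and 2026 at 3 weeks against 1094 and 549 in controls (1.28, adjusted p = 0.018). Its 2 controls differ from each other by more than the nearest arrays of the groups do, and it kept its call under 1 omission, its change being 0.74 without the female control. Csf3r, the receptor for the growth factor of neutrophils, read 363 and 379 at 3 weeks against 163 and 141 in controls (1.20, adjusted p = 0.0046).

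Among chemokine ligands and receptors of the CC class, 5 of 12 rose and 0 fell (4 and 2 rises under the other 2 scalings, and 2 without the male control). Ccl9, a ligand of Ccr1, read 652 and 614 at 3 weeks against 171 and 207 in controls (1.67, SE 0.14, adjusted p = 2.9e-06), and a second probe set gave 1.96. Ccl8, an attractant of monocytes, read 768 and 477 at 3 weeks against 186 and 178 in controls (1.65). Ccl6 changed by 0.90. Ccl9 and Ccl8 kept their calls under all 4 omissions. Of 25 CXC chemokines and cytokines, 3 rose and 1 fell, the rises being Cxcl10, Il1b (1.18) and the interleukin 1 receptor antagonist Il1rn (0.90, but 0.48 and not past the threshold without the male 3 week array). Cxcr4, the receptor that holds leukocytes in marrow and tissue, read 254 and 268 at 3 weeks against 597 and 477 in controls (-0.99, adjusted p = 0.044), and lost its call under each omission. Tlr4 itself read 88.3 and 129 at 3 weeks against 95.7 and 76.0 in controls, so its groups overlap (0.28, adjusted p = 0.61).

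Some targets of p53 rose. Of 35 tested, 9 rose and 0 fell, while the list's median was 0.05, against -0.03 for all genes, and -0.20 against -0.32 with the intensities as deposited. Cdkn1a, the p21 inhibitor of the cell cycle, read 959 and 1741 at 3 weeks against 300 and 362 in controls (1.92, SE 0.20, adjusted p = 5.5e-05). Ccng1, cyclin G1, read 762 and 1063 at 3 weeks against 349 and 335 in controls (1.36). Its other probe sets gave 1.36 and 1.37. Phlda3, an inhibitor of Akt at the membrane, read 1173 and 1066 at 3 weeks against 473 and 488 in controls (1.19, SE 0.13, adjusted p = 5.5e-05). These 3 and Psrc1 kept their calls under all 4 omissions. Of 24 genes of DNA break repair, only the histone H2ax rose (0.61, adjusted p = 0.045), and it lost its call under each omission. Blmh, the hydrolase that inactivates bleomycin, read 312 and 240 at 3 weeks against 302 and 292 in controls, with overlapping groups (-0.11, SE 0.18, adjusted p = 0.81).

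Cell division genes rose beside Cdkn1a. Of 36 genes of G2 and mitosis, 13 rose and 0 fell, and 32 had both 3 week arrays above both controls, as did 21.1% of all genes. The list's median change was 0.72 (0.93 in males and 0.46 in females), and it stayed at 0.73 and 0.54 under the other scalings, although the rises numbered 2 with the intensities as deposited. Birc5, survivin, a subunit of the chromosome passenger complex, read 144 and 165 at 3 weeks against 32.2 and 36.2 in controls (1.76, SE 0.24, adjusted p = 0.00058). Prc1, which bundles the spindle midzone, read 184 and 213 at 3 weeks against 55.1 and 93.5 in controls (1.28), and Pbk, a mitotic kinase, changed by 1.15. Top2a, the topoisomerase that untangles replicated DNA, read 199 and 241 at 3 weeks against 82.2 and 99.7 in controls (1.14), but another probe set named for it gave -0.06. Of the 13, Birc5 kept its call under all 4 omissions, and the count fell to 1 without the male control and 4 without the male 3 week array. Of 26 genes of replication and the G1 to S transition, 4 rose and 0 fell. They were Tk1, thymidine kinase, at 144 and 121 at 3 weeks against 32.7 and 42.8 in controls (1.47, adjusted p = 0.00098), the ribonucleotide reductase subunits Rrm2 (1.26) and Rrm1 (0.71), and Ccnd1, cyclin D1 (0.57, adjusted p = 0.0495). The rises became 3 with 1 common median and 1 with the intensities as deposited, where Ccnd1 changed by 0.12. Of the 4 genes, Tk1 alone kept its call under all 4 omissions.

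Promoters of these genes are shown because many mitotic genes carry the cell cycle homology region, TTTGAA or TTCGAA on either strand, through which they are silenced outside division. The promoter window was 250 bases before to 50 after the start, from RefSeq on GRCm38.p6. In Top2a the element stands 179 bases before the start, at chr11:99024343-99024388 on the minus strand, with the motif in capitals:
Top2a: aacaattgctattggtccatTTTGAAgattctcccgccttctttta
The same letters were in the promoters of 9 of 11 G2 and mitosis genes that rose and had a window (81.8%) and of 13 of 18 that did not pass the threshold (72.2%). They were in 27.0% of windows of all genes that rose, 16.1% of those of all genes tested and 21.7% of all 27025 promoters. The share was thus high in the mitotic genes whether or not they passed the threshold.

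Interferon-stimulated genes rose in part. Of 7 tested OAS genes 4 rose, of 20 IFIT and other effector genes 6 rose, and of 25 signalling and sensor genes 1 rose, with 0 falls in the 3 lists. With the intensities as deposited 1, 1 and 0 rises were left. Oas3, which makes the 2'-5' oligoadenylates that switch on RNase L, read 206 and 192 at 3 weeks against 20.96 and 25.6 in controls (2.45, SE 0.20, adjusted p = 2.9e-06). Oasl2 changed by 1.32, Oasl1 by 0.84 (0.47 without the male 3 week array) and Oas1a by 0.74, each with an adjusted p between 0.037 and 0.049. Oas2 missed the threshold at 191 and 217 at 3 weeks against 99.8 and 110 in controls (0.86, adjusted p = 0.072). Oas1b read 108 and 26.8 at 3 weeks against 85.2 and 70.9 in controls, and Oas1e read 29.7 and 17.2 at 3 weeks against 48.9 and 49.6 in controls, with changes of -0.36 and -0.74 that did not pass. The Oas1 genes are near-identical copies whose probe sets can share RNA, so their separate values are uncertain.

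Outside the OAS family, Cxcl10, the interferon-induced attractant of T cells, read 91.8 and 88.6 at 3 weeks against 5.27 and 6.40 in controls (2.28, SE 0.32, adjusted p = 0.00072). Irf7, the factor that amplifies type I interferon, read 485 and 348 at 3 weeks against 123 and 137 in controls (1.55, adjusted p = 0.00072). Ifit1, which binds viral RNA ends, read 450 and 477 at 3 weeks against 148 and 184 in controls (1.40), and Lgals3bp, a secreted glycoprotein, read 1070 and 1088 at 3 weeks against 519 and 611 in controls (0.92). Ifi202b, a DNA-binding p200 protein, changed by 1.40, the 1 rise among 11 GTPases and p200 genes. Oas3, Cxcl10, Irf7 and Lgals3bp kept their calls under all 4 omissions, and the other 3 rises of the OAS family were lost under at least 3 of them. Tap1, the peptide transporter, was the 1 rise among 13 genes of MHC class I (0.98, adjusted p = 0.012). It lost its call under each omission, and its other probe sets gave -0.03 to 0.44. None of 11 MHC class II and costimulation genes passed the threshold, against 2.83% of all genes. The cathepsin Ctss of that list read 2552 and 3124 at 3 weeks against 1987 and 1774 in controls (0.58, adjusted p = 0.095).

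The interferon-stimulated response element, searched on either strand as GAAA, any 2 bases and GAAA, is shown in the promoters of 4 of these genes, with each match in capitals. The windows lie at chr5:120777710-120777749 on the minus strand for Oas3, chr5:92349078-92349117 on the minus strand for Cxcl10, chr19:34640770-34640828 on the plus strand for Ifit1 and chr5:120907515-120907560 on the minus strand for Oas1a, where 2 matches overlap.
Oas3: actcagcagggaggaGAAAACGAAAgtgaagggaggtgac
Cxcl10: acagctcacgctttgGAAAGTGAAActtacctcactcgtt
Ifit1: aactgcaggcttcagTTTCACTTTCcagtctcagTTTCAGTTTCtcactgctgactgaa
Oas1a: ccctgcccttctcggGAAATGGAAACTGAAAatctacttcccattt
The element was in the windows of 5 of 11 interferon-list genes that rose (45.5%) and of 16 of 38 that did not pass (42.1%). It was in 11.1% of windows of all genes that rose, 3.53% of those that fell, 3.87% of those of all genes tested and 3.99% of all promoters.

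Matrix genes rose in the fibrillar collagens, in elastic fibres and among proteases. Of 12 fibrillar and type VI collagen genes 4 rose and 0 fell, 3 with 1 common median and 0 with the intensities as deposited, where the median change was still 0.14. Col1a1 read 843 and 901 at 3 weeks against 350 and 364 in controls (1.25, SE 0.23, adjusted p = 0.0061). Col1a2, its partner chain in type I collagen, read 2613 and 2458 at 3 weeks against 1222 and 1410 in controls (0.94, SE 0.11, adjusted p = 0.00018), and Col5a2 read 933 and 894 at 3 weeks against 411 and 416 in controls (1.12). Col3a1 read 2149 and 3003 at 3 weeks against 1495 and 1560 in controls (0.73, adjusted p = 0.037). The groups do not overlap for these 4 collagens, as for all 158 genes that rose, so this adds nothing to their calls. Col1a2, Col5a2 and the basement membrane chain Col4a1 (0.74, adjusted p = 0.0029) kept their calls under all 4 omissions, and Col1a1 and Col3a1 under 1.

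Of 23 elastic fibre, lysyl oxidase and matricellular genes, 6 rose and 0 fell, where 1.74% of all genes rose and 1.09% fell. The 6 became 3 with 1 common median and 1 with the intensities as deposited. Tnc, tenascin C, a matrix protein of wounds, read 211 and 229 at 3 weeks against 43.7 and 39.2 in controls (2.04, SE 0.35, adjusted p = 0.0041). Eln, elastin, read 965 and 1084 at 3 weeks against 346 and 329 in controls (1.55), and its other probe set gave 3.44. Without the female control Eln changed by 1.33 and Tnc by 1.85, and without the male control by 1.78 and 2.23. Fn1, fibronectin, read 3243 and 3494 at 3 weeks against 1546 and 1930 in controls (0.96), and missed the threshold with 1 common median (0.73). Tgfbi, a matrix protein induced by TGF-beta, changed by 1.13 (SE 0.15, adjusted p = 0.00058) and kept its call under all 4 omissions. Lox, the enzyme that crosslinks collagen and elastin, read 441 and 584 at 3 weeks against 353 and 243 in controls and did not pass (0.76, adjusted p = 0.069). Of 25 proteases and inhibitors 6 rose and 0 fell (4 and 2 rises under the other 2 scalings, and 2 without the male 3 week array). Timp1, an inhibitor of metalloproteinases, read 494 and 326 at 3 weeks against 108 and 123 in controls (1.67, SE 0.26, adjusted p = 0.0017) and kept its call under all 4 omissions, and Mmp14 changed by 0.97. Of 22 collagen folding and proteoglycan genes 1 rose, the lysyl hydroxylase Plod3 (0.46, adjusted p = 0.042), which lost its call under each omission.

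Genes of TGF-beta, activin and BMP signalling gave 0 rises and 2 falls among 42, where 1.74% of all genes rose and 1.09% fell. Tgfb1 read 464 and 659 at 3 weeks against 411 and 449 in controls (0.35, SE 0.25, adjusted p = 0.52). The falls were Bmp6, a BMP ligand, at 457 and 393 at 3 weeks against 874 and 785 in controls (-0.94, adjusted p = 0.0049), and Bambi, a decoy receptor, at 74.5 and 74.4 at 3 weeks against 162 and 163 in controls (-0.98, adjusted p = 0.012). Bambi lost its call under each omission. Acta2, smooth muscle actin, which marks myofibroblasts, read 1575 and 1592 at 3 weeks against 1486 and 1551 in controls (0.06, SE 0.17, adjusted p = 0.90). S100a4, a protein of fibroblasts and macrophages, rose (1.15), and Pdgfra, a fibroblast receptor, fell (-0.72, adjusted p = 0.033), although its other probe sets did not all go the same way. All 3 falls among 25 insulin-like and other growth factor genes were binding proteins of the insulin-like growth factors. Igfbp6 read 625 and 477 at 3 weeks against 1364 and 1150 in controls (-1.17, SE 0.19, adjusted p = 0.0021) and kept its call under all 4 omissions. Igfbp5 changed by -1.11, and Igfbp3 read 59.1 and 68.1 at 3 weeks against 274 and 168 in controls (-1.54).

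Some epithelial and endothelial genes passed the threshold, where 2.83% of all genes tested did (1.74% rose and 1.09% fell). A count of 1 in lists this small says little about the list. None of 23 type 2 alveolar genes rose and 1 fell, Pon1, an antioxidant esterase, at 663 and 600 at 3 weeks against 1445 and 887 in controls (-0.83). Surfactant protein gene Sftpd read 6113 and 6040 at 3 weeks against 4970 and 5002 in controls and did not pass (0.28, adjusted p = 0.13). Among 17 type 1 genes 1 fell, Rtkn2 (-0.80, adjusted p = 0.038). Of 23 airway secretory genes 4 fell and 1, Retnla, rose. Bpifa1, a secreted defence protein of upper airways, read 1252 and 817 at 3 weeks against 2081 and 2198 in controls (-1.07, adjusted p = 0.0048), Aox3, an aldehyde oxidase, changed by -1.08 and Fmo1, a drug-metabolising oxygenase, by -0.68. Of 12 ciliated cell genes 1 fell, Tppp3 (-0.63). Of 37 endothelial genes 1 rose, Cd93 (0.49, but 0.30 without the female 3 week array), and 1 fell, Tek, the angiopoietin receptor, at 545 and 665 at 3 weeks against 1125 and 1100 in controls (-0.87, SE 0.15, adjusted p = 0.0031). Tek kept its call under all 4 omissions, and the other falls named here did not.

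**Figure D2:**
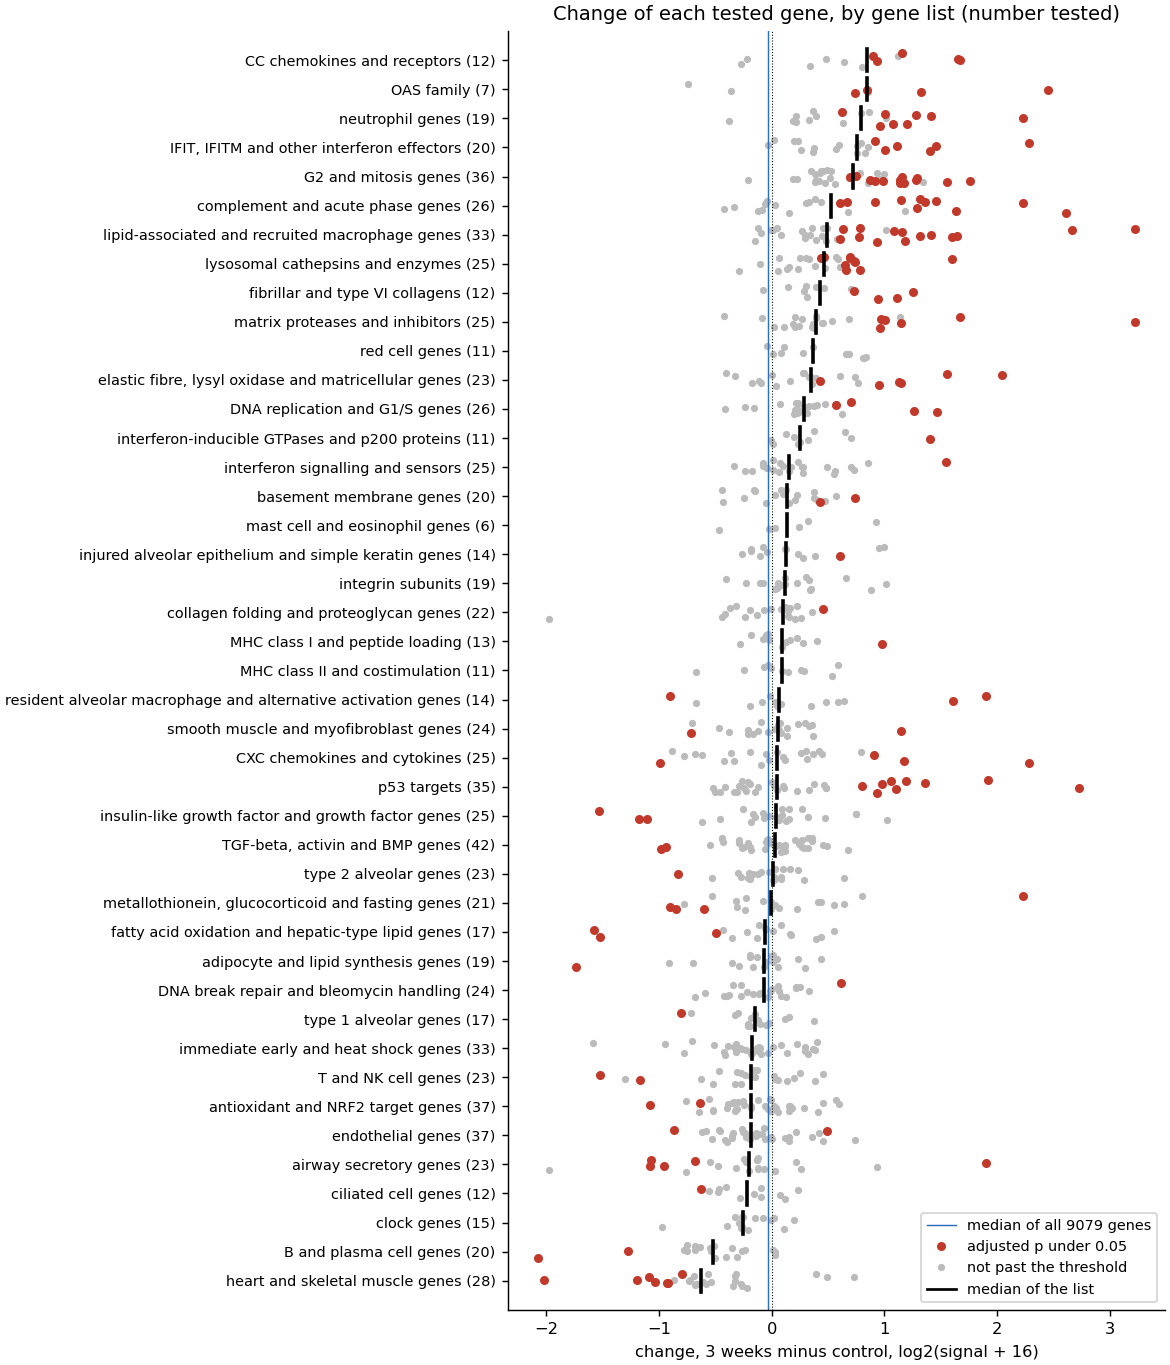
Change of every tested gene (3 weeks minus control, log2(signal + 16), horizontal axis) in each gene list, with the number tested in brackets, red where the adjusted p was under 0.05, the list's median as a black bar and the median of all genes as a blue line. The lists at the top, with medians from 0.39 to 0.85, hold macrophage, interferon, mitotic, neutrophil and collagen genes, and the B cell list (-0.52) and the heart muscle list (-0.63) lie lowest.

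Some markers of other tissues passed the threshold, where 1.74% of all genes tested rose and 1.09% fell. Of 28 heart and skeletal muscle genes 7 fell and 0 rose, with a median of -0.63, -0.36 in males and -0.89 in females. The 7 falls became 1 without the female 3 week array, 0 without the female control, 3 without the male control and 8 without the male 3 week array. Mouse lungs hold heart muscle around the pulmonary veins, and atrial tissue can come away with the lung. The list's summed signal was 6200 and 4388 at 3 weeks against 8231 and 9510 in controls, and none of its named markers was at 0. Myh6, the heart's main myosin, read 181 and 159 at 3 weeks against 372 and 452 in controls (-1.20, adjusted p = 0.0046), and Tnni3, heart troponin I, read 293 and 146 at 3 weeks against 395 and 497 in controls (-1.04, but -0.55 without the female 3 week array). Mb, myoglobin, read 242 and 43.2 at 3 weeks against 460 and 511 in controls (-2.02), which becomes -3.08 without the male 3 week array and -0.95 without the female one, and its other probe set gave 0.04. B and plasma cell genes gave 2 falls and 0 rises among 20, with a summed signal of 7769 and 7009 at 3 weeks against 10345 and 9740 in controls. Cd79b of the B cell receptor changed by -1.27 (adjusted p = 0.034), and an immunoglobulin segment, Ighv14-2, by -2.07. Without the female 3 week array these changes were -1.06 and -1.53, and without the male one -1.49 and -2.61. Of 23 T and NK cell genes 2 fell, the T cell receptor subunit Cd3d and the signalling adaptor Lat. Cd3d read 34.8 and 13.2 at 3 weeks against 89.7 and 99.9 in controls (-1.52). Lat changed by -1.17, but by -0.75 without the male 3 week array and -1.59 without the female one. Its change was -0.85 without the male control and -1.50 without the female control. No gene of 11 red cell and 6 mast cell and eosinophil genes passed the threshold. The summed red cell signal was 5179 and 4560 at 3 weeks against 4107 and 3100 in controls. The part of dissection or blood content in the other results was not tested.

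Fat and metabolism genes fell in a few cases, and none of the falls named here kept its call under all 4 omissions. Of 19 adipocyte and lipid synthesis genes 1 fell, Thrsp, a regulator of lipid synthesis, at 89.2 and 47.9 at 3 weeks against 158 and 414 in controls. Its change of -1.74 runs from -1.09 without the female control to -2.39 without the male control. Adipoq, the fat cell hormone, read 186 and 44.5 at 3 weeks against 205 and 181 in controls, low on the female 3 week array alone (-0.91, adjusted p = 0.28), and without the male 3 week array its change was -1.996 (adjusted p = 0.0014). Of 17 fatty acid oxidation and liver-type lipid genes 3 fell: Fabp1, a fatty acid carrier, at 33.6 and 29.8 at 3 weeks against 126 and 127 in controls (-1.57), Acaa1b (-1.52) and Cyp4b1 (-0.50). Of 37 antioxidant and NRF2 target genes 2 fell, Aox3 and the glutathione transferase Gstm1 (-0.63), and Hmox1, haem oxygenase 1, read 141 and 120 at 3 weeks against 179 and 139 in controls (-0.25, adjusted p = 0.66). Of 21 metallothionein, glucocorticoid and fasting genes 3 fell, Klf15 (-0.91), Cdkn1c (-0.85, lost without the male 3 week array at -0.60) and Txnip (-0.60), and Lcn2 rose. None of 15 clock, 33 immediate early and heat shock, and 19 integrin genes passed the threshold, where 2.83% of all genes did. Egr3, an early response factor, had one of the larger changes that did not pass, with 28.9 and 21.2 at 3 weeks against 93.4 and 122 in controls (-1.59, adjusted p = 0.069). Npy, neuropeptide Y, which belongs to none of the lists, read 70.3 and 102 at 3 weeks against 17.9 and 11.5 in controls (1.72, SE 0.25, adjusted p = 0.00092).

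The male and female comparisons, 1 array against 1 each and at different doses, gave a Pearson correlation of 0.373 across the 9079 genes, which are not independent of each other. Among the 158 genes that rose the median change was 1.02 in males and 0.93 in females, and the male change was the larger in 95. Among the 99 that fell it was -0.87 in males and -0.82 in females, although the fall was the larger in males in only 40. Marco rose by 2.16 in males and 1.06 in females, and Cdkn1a by 1.63 in males and 2.21 in females. The difference between the sexes was not tested.

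**Figure D3:**
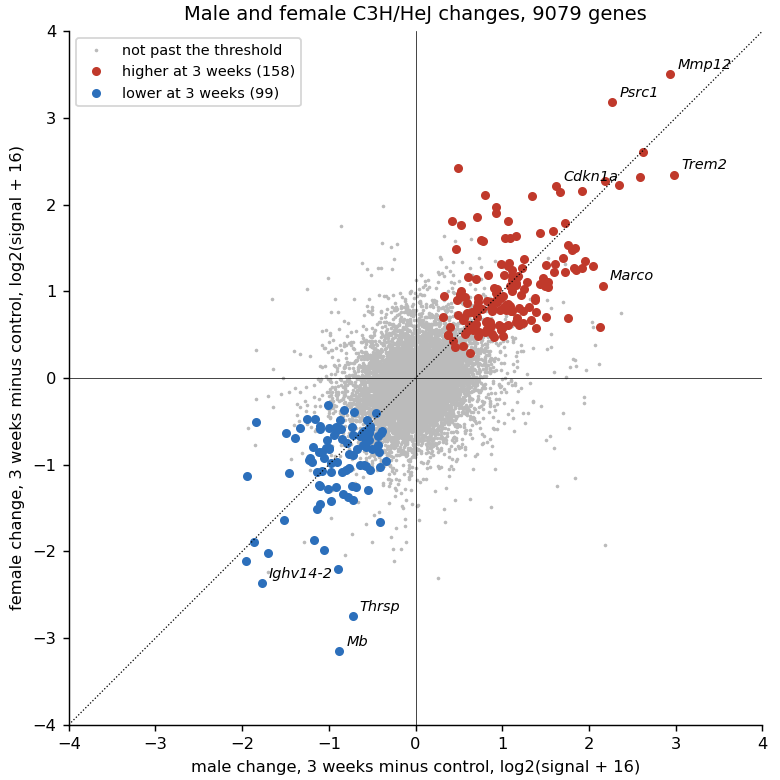
Change in male (horizontal) and female (vertical) C3H/HeJ lungs, 3 weeks minus control on the log2(signal + 16) scale, for the 9079 genes tested, with genes that rose in red, genes that fell in blue and the dotted line marking equal changes. All red and blue points lie where both sexes moved the same way, Mb and Thrsp stand out by a larger female fall and Marco by a larger male rise.

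The response was then set against that of C57BL/6 at the same 2 doses, with its own controls. In C57BL/6, 1186 genes (13.1%) changed, 644 up (7.09%) and 542 down (5.97%). Of the 257 C3H/HeJ genes, 115 also rose and 52 also fell there, 65.0% of the C3H/HeJ genes and 14.1% of the C57BL/6 genes, and 2 were called in opposite directions. The genes that rose in C3H/HeJ, chosen by their change there, had a median change of 0.98 in C3H/HeJ and 0.996 in C57BL/6, and those that fell had -0.87 in C3H/HeJ and -0.63 in C57BL/6. The lists differed in their counts: of 37 endothelial genes 1 fell in C3H/HeJ and 22 in C57BL/6, and of 23 type 2 alveolar genes 1 fell in C3H/HeJ and 11 in C57BL/6. Among macrophage genes 14 of 33 rose in C3H/HeJ and 24 in C57BL/6, and among p53 targets 9 of 35 rose in C3H/HeJ and 11 in C57BL/6. These counts are descriptions, and the difference was tested gene by gene.

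That test found 27 genes (0.297%) whose change differed between the strains, 13 more positive in C3H/HeJ and 14 more negative, with 1336 at an unadjusted p under 0.05 (14.7%). The 27 became 184 without the male C3H/HeJ 3 week array, with all 27 among them, but 5 without the male C57BL/6 one, 7 and 9 without the male and the female C3H/HeJ control, and 2 with the intensities as deposited. Of the 27 genes 17 were called in C57BL/6 and not in C3H/HeJ. Apoe, the lipoprotein of lipid-loaded macrophages, read 1809 and 1263 at 3 weeks and 1213 and 1246 in controls of C3H/HeJ, against 5431 and 4865 at 3 weeks and 1209 and 1318 in controls of C57BL/6. Its difference, C3H/HeJ minus C57BL/6, was -1.72 (SE 0.29, adjusted p = 0.014). Hmox1 went the same way, with 296 and 288 at 3 weeks against 91.9 and 88.8 in controls of C57BL/6 (difference -1.78, adjusted p = 0.042). Pcolce2, an enhancer of collagen processing, fell in C57BL/6, with 224 and 291 at 3 weeks against 1246 and 1194 in controls, while C3H/HeJ had 582 and 587 at 3 weeks against 754 and 771 in controls (difference 1.81, SE 0.25, adjusted p = 0.0025). Slc7a10, an amino acid transporter, likewise differed by 1.40 and Tppp3 by 1.05. Hbb-b2, a haemoglobin chain, read 269 and 263 at 3 weeks against 200 and 103 in C3H/HeJ controls, but 50.7 and 40.3 at 3 weeks against 140 and 177 in C57BL/6 controls (difference 2.32). In C3H/HeJ its other probe set changed by 0.13, against 0.82 for the one used.

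For 6 of the 27 genes the controls of the 2 strains differed more than 2-fold, and the controls enter the difference itself. Gpnmb reached 868 and 766 at 3 weeks in C3H/HeJ, close to the 1143 and 998 of C57BL/6, but its controls read 245 and 255 in C3H/HeJ and 70.8 and 78.2 in C57BL/6 (difference -1.94, SE 0.26, adjusted p = 0.0025). Armcx4 read 182 and 211 at 3 weeks in C3H/HeJ and 187 and 239 in C57BL/6, with controls of 230 and 194 in C3H/HeJ and 44.2 and 51.4 in C57BL/6 (difference -1.94). Dcn, decorin, a proteoglycan that binds collagen and TGF-beta, read 518 and 534 at 3 weeks in C3H/HeJ and 524 and 404 in C57BL/6, with controls of 503 and 442 in C3H/HeJ and 1254 and 1116 in C57BL/6 (difference 1.48, adjusted p = 0.048). Pttg1, securin, which guards chromosome separation, had far lower controls in C3H/HeJ: it read 1084 and 833 at 3 weeks against 466 and 469 in C3H/HeJ controls, and 1908 and 2052 at 3 weeks against 2676 and 2857 in C57BL/6 controls (difference 1.48, SE 0.20). Its other probe sets in C3H/HeJ ran from -0.09 to 0.93.

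Oas3 gave the same picture. Its 3 week signals were 206 and 192 in C3H/HeJ and 135 and 196 in C57BL/6, and its control signals were 20.96 and 25.6 in C3H/HeJ and 89.1 and 64.9 in C57BL/6. The 3 week signals lie within a narrow band in both strains, and the C3H/HeJ controls stand apart below. The change was 2.45 in C3H/HeJ and 0.96 in C57BL/6 (difference 1.50, SE 0.29, adjusted p = 0.037). Among its relatives, Oas1a changed by 0.74 in C3H/HeJ and 1.26 in C57BL/6, Oas2 by 0.86 in C3H/HeJ and 1.13 in C57BL/6, and neither difference passed the threshold.

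**Figure D4:**
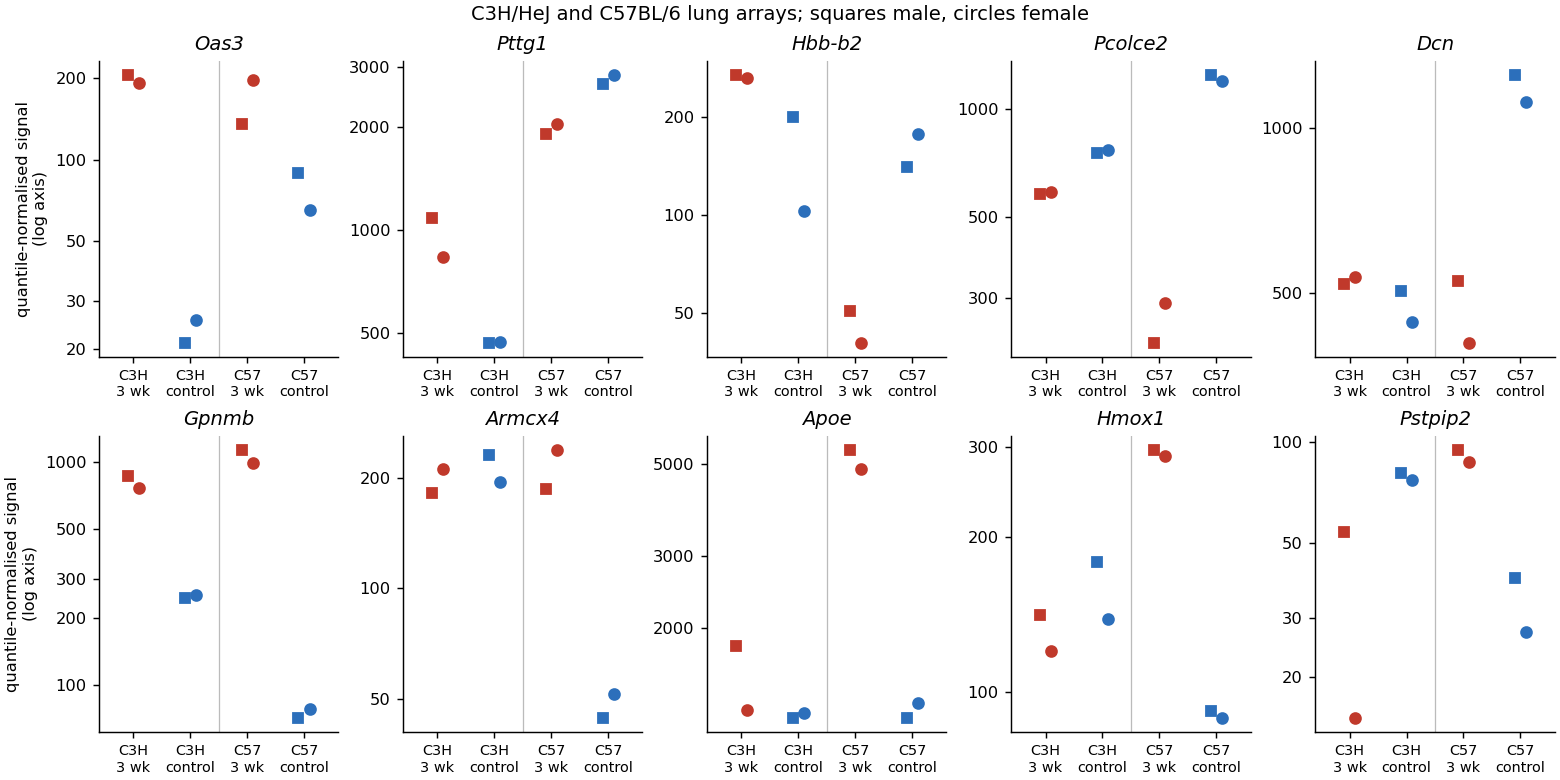
Quantile-normalised signal (log axis, a separate range for each gene) of 10 of the 27 genes whose change differed between C3H/HeJ and C57BL/6, 1 point per array, red for 3 weeks and blue for control, squares male and circles female. For Oas3, Gpnmb, Armcx4 and Dcn the red points of the strains lie close together and the blue ones apart, whereas for Apoe the blue points of the strains coincide and the red ones differ.

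Against A/J, in which 94 genes (1.04%) changed at 3 weeks, 56 of the 158 C3H/HeJ rises and 9 of the 99 falls were also called, and 51 genes rose in all 3 strains. The test of the difference found 1 gene (0.011%), Oas3, with 361 genes (3.98%) at an unadjusted p under 0.05. In A/J, Oas3 read between 121 and 144 on the 4 arrays at 3 weeks and 66.6 and 87.1 in controls, a change of 0.67, so that the difference was 1.79 (SE 0.27, adjusted p = 0.035). The call was lost when any 1 of the 4 C3H/HeJ arrays or 5 of the 6 A/J arrays was left out, and with the intensities as deposited. Neutrophil genes had medians of 0.79 in C3H/HeJ and 0.93 in A/J, with 8 rises in C3H/HeJ and 9 in A/J among 19 genes. S100a8 changed by 1.28 in C3H/HeJ and 2.55 in A/J, a difference that did not pass.

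Several of the strongest rises were smaller at 6 weeks. The test between 6 and 3 weeks reuses the 3 week arrays by which the rises were chosen. For such genes this favours a lower value at 6 weeks. Between 6 and 3 weeks 17 genes (0.187%) differed, 12 lower (0.132%) and 5 higher (0.0551%) at 6 weeks, and 1244 had an unadjusted p under 0.05 (13.7%). The 17 became 43 without the male 3 week array, 26 without the male 6 week array and 8 without the female 6 week array, whose Gapdh 3' to 5' ratio of 2.08 was the highest of the 21 arrays, a measure that rises with RNA degradation. Saa3 read 74.0 and 62.7 in controls, 536 and 464 at 3 weeks and 117 and 92.5 at 6 weeks (6 minus 3 weeks -2.10, SE 0.32, adjusted p = 0.0084). Lcn2 read 594 and 527 in controls, 2752 and 2606 at 3 weeks and 845 and 812 at 6 weeks (-1.67, SE 0.13, adjusted p = 4.5e-06). Retnla read 879 and 717 in controls, 2822 and 3227 at 3 weeks and 770 and 906 at 6 weeks (-1.83), back within its control range on 1 array and close to it on the other. Marco (-1.59), Ccl9 (-1.23), Rrm2 (-1.18), C3ar1 (-1.15), C1qa (-1.13) and Ccng1 (-1.12) were also lower at 6 weeks.

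Some of the largest rises were still present at 6 weeks. Mmp12 read 19.8 and 6.55 in controls, 258 and 240 at 3 weeks and 375 and 333 at 6 weeks, and Npy read 17.9 and 11.5 in controls, 70.3 and 102 at 3 weeks and 93.2 and 97.8 at 6 weeks. Gpnmb read 245 and 255 in controls, 868 and 766 at 3 weeks and 799 and 642 at 6 weeks. Their differences between 6 and 3 weeks did not pass the threshold (0.48 with SE 0.48, 0.15 with SE 0.25 and -0.18 with SE 0.19). Set against the same controls, 10 genes (0.11%) were called at 6 weeks, all higher, among them Mmp12 (3.70), Trem2 (1.98), Npy (1.87), Psrc1 (1.70), Oas3 (1.60), Gpnmb (1.46), Ctsk (1.30) and Phlda3 (0.82), and 419 had an unadjusted p under 0.05 (4.62%). The 3 and 6 week comparisons share their controls, so these values are given side by side with no test of their likeness. The genes that rose at 3 weeks, which were chosen for that change, had a median change from control of 0.98 at 3 weeks and 0.40 at 6 weeks.

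**Figure D5:**
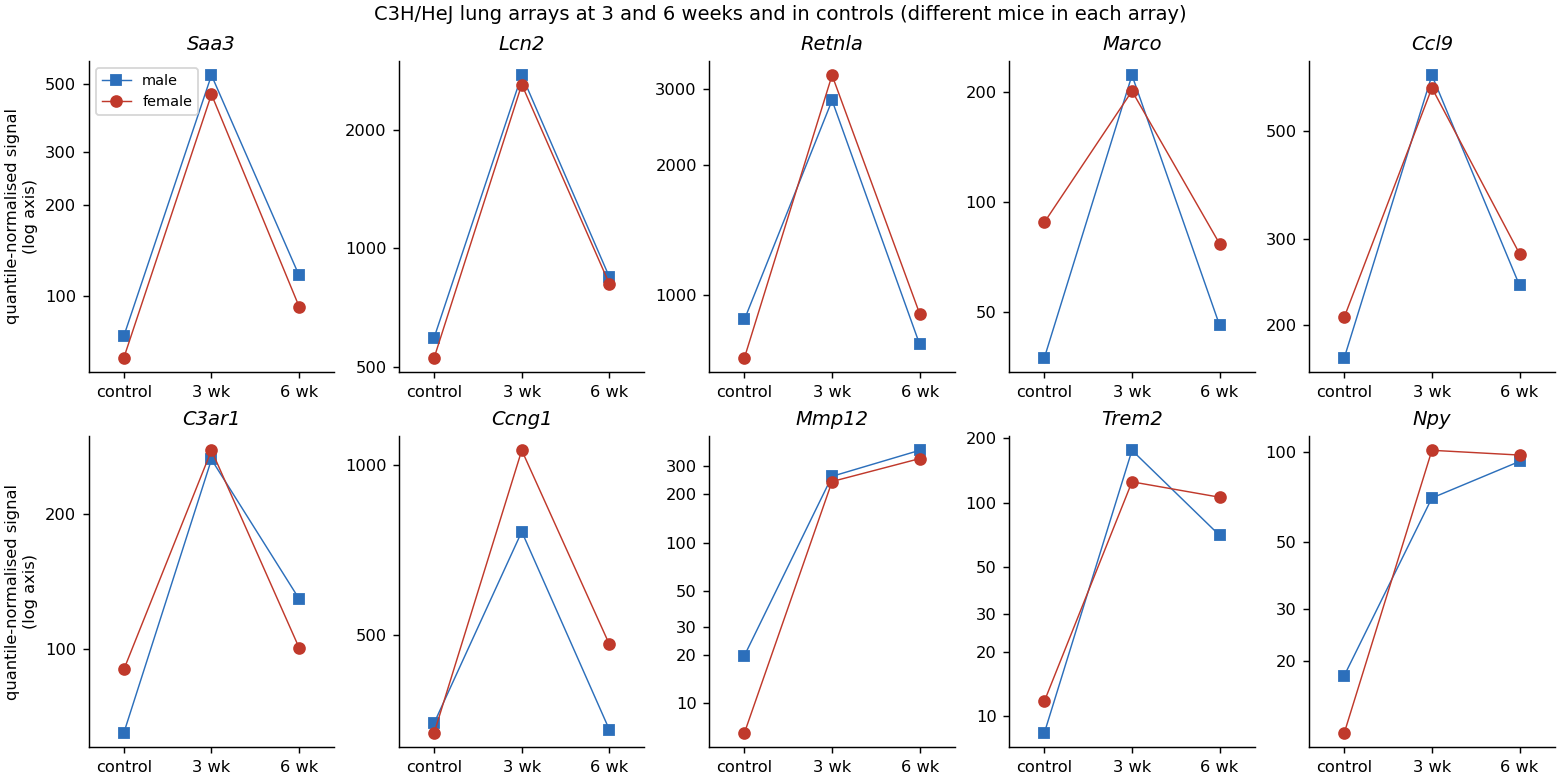
Quantile-normalised signal (log axis, a separate range for each gene) of 10 genes in C3H/HeJ controls and at 3 and 6 weeks, squares for male and circles for female arrays, each of different mice, joined by lines only to guide the eye. Saa3, Lcn2, Retnla, Marco, Ccl9, C3ar1 and Ccng1 are highest at 3 weeks on both lines, while Mmp12, Trem2 and Npy stay well above their controls at 6 weeks.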

How the data were processed

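Total RNA of 21 lung pools was hybridised to Affymetrix mouse arrays, 1 array per pool, per the labels. The authors deposited 1 intensity per probe set on a linear scale, with array medians between 58.6 and 111, so the deposited values were not brought to 1 level. For the summarising software and the build, nothing is given in the sources used here, and no detection calls were used. From these intensities, arrays were quantile-normalised and expressed as log2(value + 16), where the deposited intensity is the value. Of 22626 probe sets the dimmest 33.3% by mean were left out, 15084 were kept, and the brightest probe set of each gene was used (9079 genes). Of all probe sets 20380 had 1 gene symbol, 691 several and 1555 none, after symbols were updated through RefSeq. Groups came from the array titles. limma 3.58.1 in R 4.3.3 fitted all 21 arrays with 10 groups and sex, and moderated variances with a trend (10 residual degrees of freedom, 16.9 after moderation). P-values were two-sided and adjusted by Benjamini-Hochberg over all genes at 0.05. The pipeline was tested on simulated data. Each array is 1 pool, so the number of arrays limits the precision, and each group compared in C3H/HeJ and C57BL/6 holds 2.

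Genes were named by rule: the 15 largest rises and falls, up to 4 genes of smallest p in each list, the OAS family, the genes of largest difference in the other comparisons, and a set of fixed genes including Xist as a check of sex. The comparison, the gene lists and the fixed genes were chosen with earlier results of these data known. Alternatives covered the scaling, the offset, the dim filter, sex, the Gapdh ratio, the arrays in the fit, the probe sets, array weights, the threshold and the omission of each array. Promoters came from RefSeq (GRCm38.p6), and 7332 of the 9079 genes had one.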

Additional observations from a re-analysis of the deposited data

Results flagged for a closer look

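Of the named genes, 15 were picked out because their 3 week change differed between C3H/HeJ and C57BL/6 by the test of the difference itself. More negative in C3H/HeJ were Pstpip2 (-2.15), Gpnmb (-1.94), Armcx4 (-1.94), Ajuba (-1.80), Hmox1 (-1.78), Pdzrn3 (-1.73) and Ccl9 (-0.97). More positive were Hbb-b2 (2.32), Pcolce2 (1.81), Oas3 (1.50), Dcn (1.48), Pttg1 (1.48), Slc7a10 (1.40), Tppp3 (1.05) and Cd93 (1.04). Pstpip2, an adaptor of myeloid cells, read 53.7 and 15.1 at 3 weeks against 80.9 and 76.9 in C3H/HeJ controls, and 94.8 and 87.1 at 3 weeks against 39.5 and 27.2 in C57BL/6 controls. Its C3H/HeJ change did not pass the threshold (-1.03), but did without the male 3 week array (-1.62, adjusted p = 0.007). Cd93, an endothelial and myeloid receptor, rose in C3H/HeJ (0.49) and fell in C57BL/6 (-0.55).

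Oas3 also differed from A/J (1.79). Its control signals were 20.96 and 25.6 in C3H/HeJ, against 66.6 and 87.1 in A/J and 89.1 and 64.9 in C57BL/6.

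Another 16 results, all of named genes, were picked out because their level differed between 6 and 3 weeks in C3H/HeJ. Lower at 6 weeks were Saa3 (-2.10), Tgm3 (-1.90), Retnla (-1.83), Lcn2 (-1.67), Marco (-1.59), Ccl9 (-1.23), Rrm2 (-1.18), C3ar1 (-1.15), C1qa (-1.13), Ccng1 (-1.12) and Pttg1 (-0.76). Higher at 6 weeks were Lat (1.30), Slc4a5 (0.96), Ccdc84 (0.95), Prickle1 (0.82) and Ddrgk1 (0.78). Tgm3, a transglutaminase of epidermis, read 54.2 and 80.7 in controls, 108 and 82.4 at 3 weeks and 14.4 and 12.8 at 6 weeks. Its 6 week signals lay below both controls, near the dim end, but no gene was called lower at 6 weeks than in controls.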

How the results depend on the processing

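The counts of genes past the threshold at 3 weeks against control (257 as reported), for the difference from C57BL/6 (27), for the difference from A/J (1) and between 6 and 3 weeks (17) moved as follows, and the causes were not tested. With the intensities as deposited they were 85, 2, 0 and 7, and 71 of the 85 were among the 257. With 1 common median the difference from C57BL/6 gave 59 genes, 54 of them more negative. With the Gapdh ratio as a covariate the last 3 counts were 11, 0 and 6. With only the arrays of the strains compared in the fit, which leaves fewer arrays to estimate the spread, 125, 4 and 3 genes were called at 3 weeks, against C57BL/6 and between times. Without the 2 male arrays of highest Xist, the C3H/HeJ 3 week array and an A/J one, the 3 differences gave 171, 5 and 34. Array weights gave 132 against C57BL/6 and 4 between times. An adjusted p under 0.10 gave 425, 167 and 56 for 3 weeks, C57BL/6 and times. Without the dim filter 8 genes differed between times. The difference from A/J gave 0 genes with an offset of 64, without the female C3H/HeJ 6 week array and with every probe set tested. With 1 array left out in turn, the counts ran from 68 to 221 at 3 weeks, from 5 to 184 against C57BL/6, from 0 to 3 against A/J and from 8 to 43 between times. Without the male 3 week array 133 of the 221 genes were among the 257.

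Of 106 named genes called at 3 weeks, 17 kept their call in all 16 alternatives checked gene by gene, 35 kept it under each omission of 1 of the 4 arrays, and 0 changed sign in any. The 17 include Mmp12, Psrc1, Saa3, Oas3, Lcn2, Cdkn1a, Retnla, Gpnmb, Timp1, Ccl9, Ccl8, C3ar1, Igfbp6, Tek and Dock9. No paired analysis was possible because the titles give no replicate numbers and each array is a pool of other mice. Dim genes sit near background, and with 2 arrays a group a gene that misses the threshold is not shown to be unchanged.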
